A study of Peromyscus polionotus with 11 samples.

Results

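The medial preoptic area of the oldfield mouse (Peromyscus polionotus) was compared between short and long days on 6 of the series' 11 Affymetrix arrays, 3 short-day and 3 long-day. The 6 arrays were chosen by their labels alone: those described as medial preoptic RNA, with samples 1, 2 and 3 from long days and samples 4, 5 and 6 from short days. Total RNA came from micropunches, small cores of tissue cut from brain sections, and was labelled with biotin. The other 5 arrays hold a neighbouring nucleus, the bed nucleus of the stria terminalis, from 3 long-day and 2 short-day samples. They took part only in the estimate of the spread and in a test of whether the response differed between the nuclei. The sources used here do not give the hours of light, the age, sex and rearing of the mice, or how many mice a sample stands for. The design text calls the samples independent but does not tie them to named animals, so p-values measure the spread between these samples.

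The medial preoptic area lies at the front of the hypothalamus and is needed for sexual and parental behaviour. Its neurons carry receptors for sex steroids, and many release galanin, enkephalin, neurotensin or other peptides. In seasonal rodents the length of the night is signalled by melatonin from the pineal gland. The pars tuberalis of the pituitary answers with thyrotropin, which alters thyroid hormone activation in the hypothalamus and through it the reproductive axis. The comparison asks which transcripts of the preoptic area differ with day length.

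Values are linear probe set intensities, deposited as whole numbers, and every array had a median of 19. A probe set is a group of short probes for 1 transcript. The probes were designed for the house mouse, so the level of one gene was not set against that of another. Where a gene had several probe sets, dimmer and brighter describe their intensities on these arrays alone. Differences are short minus long day on the log2 scale, where 1 is a doubling of intensity, with the standard error (SE) of the model. Intensities are listed for samples 1, 2 and 3 (long days) and then 4, 5 and 6 (short days).

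One array stood apart. On the first principal component of the 6 arrays, which held 37.0% of their variance, short-day array 6 lay at 33.8 and the other arrays between -12.6 and -1.76. Its root mean square distance from the other arrays of its group was 0.293 log2 units, against 0.206 to 0.232 for the other 5. It was also furthest from the long-day mean of the 3 short-day arrays in 43.5% of all probe sets, and in 428 of the 793 with an unadjusted p under 0.05. Leaving it out moved 10 of the 61 named differences with an unadjusted p under 0.05 by over 1.5 times and turned the median of some gene lists. The values without it are given for these.

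The preoptic label was checked against 32 measured markers of hypothalamic and preoptic neurons. Their mean log2 intensity was 5.21 to 5.35 on the preoptic arrays and 5.07 to 5.11 on the bed nucleus arrays. Gal, which encodes the peptide galanin, read 93 to 122 in the preoptic area and 54 to 80 in the bed nucleus. Lhx1, a LIM homeodomain factor, read 45 to 62 against 20 to 41, and Lhx8, a factor of ventral forebrain neurons, 17 to 31 against 12 to 14. Nkx2-1, a factor of hypothalamic and other ventral forebrain development, did not separate the nuclei, at 61 to 81 and 64 to 81. Otp and Six3, also on the list, leaned towards the bed nucleus. Otp read 18 to 27 in the preoptic area against 25 to 40, and Six3 50 to 72 against 57 to 88. Other markers of the list read under the array median on the preoptic arrays: Calcr (calcitonin receptor) read 12 to 17 and Moxd1 (a monooxygenase of sexually dimorphic preoptic neurons) 11 to 16. Esr1 (oestrogen receptor alpha), which is not on this list, read 10 to 14. Lhx1, Lhx8, Nkx2-1, Otp, Six3 and Moxd1 were picked as examples after their values were seen. Of 29 genes of steroid, peptide and photoperiod biology picked for naming, 22 had a probe set with a single gene symbol, and the others are not analysed here.

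Short-day and long-day samples were not told apart by any probe set at the adjusted threshold. With limma on all 22626 probe sets, 0 (0%) had an adjusted p under 0.05, and the smallest adjusted p was 0.348. An unadjusted p under 0.05 was found for 793 probe sets (3.50%), of which 413 (1.83%) were higher and 380 (1.68%) lower under short days. The 3 short-day values lay all above or all below the 3 long-day values in 1175 probe sets (5.19%). Where groups do not differ, an unadjusted p under 0.05 has a probability of 0.05. Such separation then has a probability of at most 0.1, since ties count as overlap. The median absolute difference was 0.09, the 95th percentile 0.29, and the median half-width of the 95% interval 0.29. Alternatives called 0 or 1 probe set: Cd24a passed with array weights (adjusted p = 0.0248, limma) and without long-day array 3 (adjusted p = 0.0180, limma), and 1 dim probe set passed when low values were set to a floor.

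**Figure D1:**
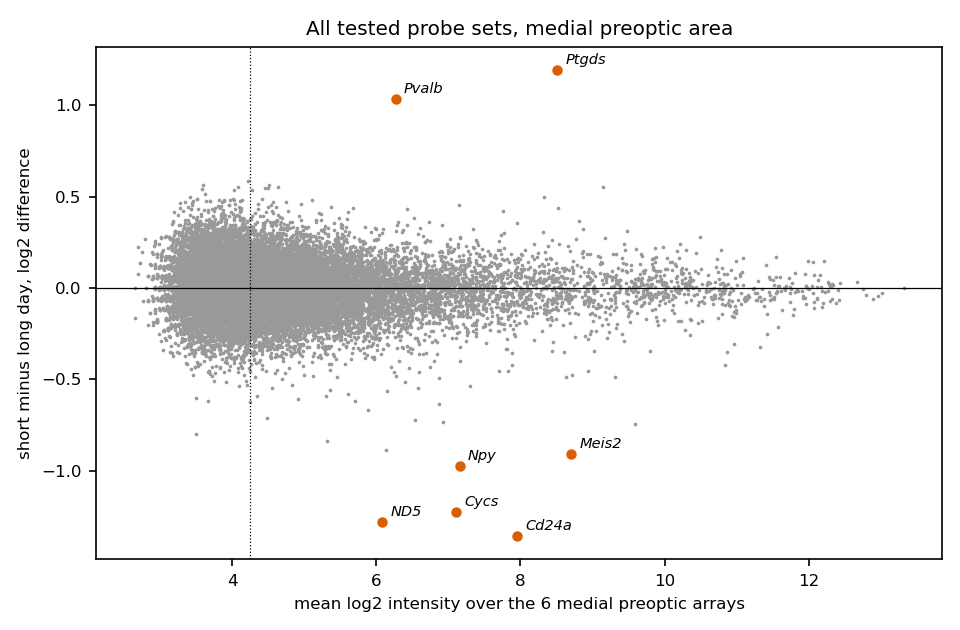
Short minus long day log2 difference of each of the 22626 tested probe sets (points) against its mean log2 intensity over the 6 preoptic arrays; the dotted line marks the array median of 19. The 7 labelled probe sets lie beyond 0.9 in either direction, from Cd24a at -1.36 to Ptgds at 1.19, and none passed the adjusted threshold.

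Only 5 probe sets differed by 1 log2 unit or more, 2 higher and 3 lower under short days, and 3 of the 5 had groups that did not overlap. They were Ptgds and Pvalb, with the higher short-day means, and Cd24a, ND5 and Cycs, with the lower ones. Pvalb and Cycs fall outside the rule for named genes and were chosen after their values were seen. Pvalb encodes parvalbumin, a calcium-binding protein of fast-spiking inhibitory neurons. It read 53, 48 and 62 under long days and 101, 99 and 135 under short days (1.03 ± 0.51, SE, unadjusted p = 0.056). All 3 short-day values were above all 3 long-day values, but the bed nucleus arrays ranged from 47 to 327, and this spread enters the SE. Cycs encodes cytochrome c of the respiratory chain and read 201, 229 and 205 under long days and 16, 253 and 181 under short days. Short-day array 4 was the low one, and without it the difference of -1.23 became 0.02. On the bed nucleus arrays Cycs read 133, 217 and 162 with long days and 31 and 157 with short days, so the short-day sample numbered 4 was low in both nuclei. The further Cycs probe sets were at 0.05 and 0.04.

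Cd24a encodes a surface glycoprotein found on immature neurons and on ependymal cells, and it had the smallest p. It read 470, 509 and 259 under long days and 137, 128 and 210 under short days, means of 413 ± 134 and 158 ± 45.0 (SD, n = 3 each). The difference was -1.36 ± 0.24 (SE; 95% interval -1.86 to -0.86; unadjusted p = 1.54e-05, adjusted p = 0.348, limma). Every short-day value was below every long-day value, with array 3 the lowest of the long-day arrays and array 6 the highest of the short-day ones. Without array 6 the difference was -1.58, and over all alternatives it ranged from -1.66 to -1.18. A further, dimmer Cd24a probe set read 20, 12 and 14 against 8, 8 and 10 (-0.80, unadjusted p = 9.74e-05), and the remaining one was at 0.02. In the bed nucleus, measured on other arrays, Cd24a read 813, 474 and 857 under long days and 201 and 184 under short days (-1.85, adjusted p = 0.0125, limma). The difference between the nuclei did not pass (0.49, unadjusted p = 0.189).

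Cd24a is listed among markers of 2 kinds of cell. Of 18 measured ependymal and choroid plexus genes, 9 were higher and 9 lower, with a median of 0.01, against 7 and 11 and a median of -0.03 without array 6. Apart from Cd24a, Aqp1, the water channel of choroid plexus, had an unadjusted p under 0.05. It read 21, 19 and 15 under long days and 13, 18 and 10 under short days (-0.45 ± 0.17, SE; -0.25 without array 6), and its groups overlapped. Ttr, which encodes the thyroid hormone carrier of choroid plexus, read 50, 60 and 58 against 55, 53 and 67 (0.06), while its further probe sets were at -0.54 and -0.46. The list's mean log2 intensity, Cd24a included, ran from 4.40 to 4.53 under long days and from 4.36 to 4.40 under short days. Its mean difference of -0.10 includes Cd24a at -1.36, whereas the median was 0.01. Of 23 progenitor and neuroblast genes, 13 were higher and 10 lower (median 0.03). Nes, the intermediate filament nestin of progenitors, was at -0.44, Hmgb2, a chromatin protein of dividing cells, at 0.30, and Dlx1, a homeodomain factor of inhibitory neuron precursors, at 0.29, each with an unadjusted p under 0.05. A further Hmgb2 probe set was at 0.07. Without long-day array 3 Dlx1 was at 0.44, and without long-day array 1 at 0.19. Fewer cells of a type and less RNA per cell cannot be told apart in punches, and the part of these cell types in the Cd24a values was not tested.

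Ptgds, the prostaglandin D synthase made by leptomeninges, choroid plexus and oligodendrocytes, had the largest positive difference. It read 204, 308 and 222 under long days and 475, 383 and 915 under short days, means of 245 ± 55.6 and 591 ± 284 (SD, n = 3 each). The difference was 1.19 ± 0.30 (SE; 95% interval 0.57 to 1.82; unadjusted p = 7.2e-04). All short-day values were above all long-day values, with array 6 highest by far, and without array 6 the difference was 0.83. A further, dimmer Ptgds probe set read 30 to 37 on all 6 arrays (-0.06). In the bed nucleus the brighter probe set went the other way, at 889, 574 and 483 under long days and 451 and 187 under short days (-1.11). The difference between the nuclei was 2.30 (unadjusted p = 5.04e-05, adjusted p = 0.238, limma), short of the threshold. Ptgds was the single leptomeningeal marker of 19 with an unadjusted p under 0.05: 9 were higher and 10 lower, with a median of -0.00 (0.05 without array 6). The list's mean log2 intensity was 4.49 on each long-day array and 4.52 to 4.57 on the short-day arrays, Ptgds included, and its part in the Ptgds values was not tested.

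**Figure D2:**
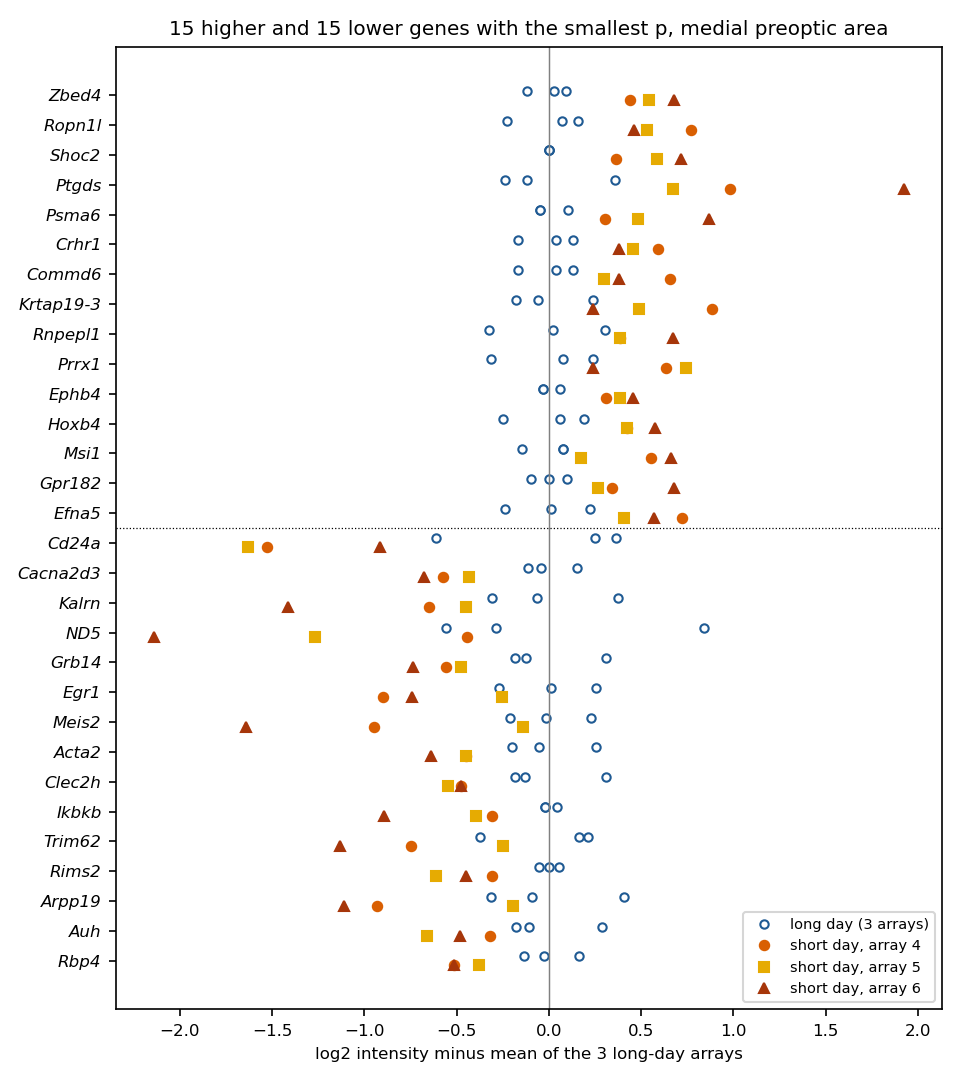
Log2 intensity on each preoptic array minus the mean of the 3 long-day arrays, for the 15 genes with a higher and the 15 with a lower short-day mean that had the smallest p (open circles, long-day arrays; filled circle, square and triangle, short-day arrays 4, 5 and 6). Array 6 (triangles) is the short-day array furthest from the long-day mean in 18 of the 30 genes, and Cd24a, ND5 and Ptgds span the widest range.

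Among the 15 higher genes with the smallest p, chosen by a fixed rule on p and level, 13 had groups that did not overlap, which the choice by p favours (5.19% of all probe sets did so). Most were dim: in 12 of the 15 both group means were under an intensity of 30. Several encode signalling proteins. Crhr1, the main receptor of corticotropin-releasing hormone, read 15, 13 and 16 under long days and 22, 20 and 19 under short days (0.47 ± 0.13, SE, unadjusted p = 0.00157). The groups did not overlap, yet a brighter Crhr1 probe set was at -0.19, reading 26, 24 and 30 against 24, 26 and 20. Efna5, an ephrin ligand of axon guidance, read 19, 16 and 22 against 31, 25 and 28 (0.57), and Ephb4, an Eph receptor best known from vessels, 15, 16 and 15 against 19, 20 and 21 (0.38). Shoc2, a scaffold of the Ras and MAP kinase pathway, read 14 on every long-day array, against 18, 21 and 23 (0.55). In each of these 3 the groups did not overlap. A further, dimmer Shoc2 probe set was at 0.07. Gpr182, a chemokine-binding receptor of endothelium, was at 0.43.

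Regulators of transcription and RNA were also among the 15. Zbed4, a zinc finger protein, read 19, 21 and 22 under long days and 28, 30 and 33 under short days (0.55 ± 0.13, SE, unadjusted p = 3.11e-04), the smallest p of the higher genes, and its groups did not overlap. Msi1, the RNA-binding protein Musashi of neural progenitors and glia, read 24, 28 and 28 against 39, 30 and 42 (0.46), while a further Msi1 probe set was at 0.06. The homeobox genes Hoxb4 (0.47) and Prrx1 (0.54) read between 13 and 30, and further probe sets were at 0.16 for Hoxb4 and between -0.07 and 0.20 for Prrx1. Psma6, a proteasome subunit, read 18, 18 and 20 against 23, 26 and 34 (0.55). Its brightest probe set, at 134 to 149, was at -0.01, and the other 2 were at -0.42 and 0.28. The others were Ropn1l (0.59), known from cilia and sperm tails, Commd6 (0.44), Krtap19-3 (0.54), a hair keratin-associated protein, and Rnpepl1 (0.48, or 0.32 without long-day array 1), a peptidase.

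Of the 15 lower genes, chosen in the same way, 10 had groups that did not overlap. Cacna2d3, an auxiliary subunit of voltage-gated calcium channels, read 96, 80 and 84 under long days and 58, 64 and 54 under short days. The difference was -0.56 ± 0.13 (SE; 95% interval -0.84 to -0.28; unadjusted p = 4.14e-04), and the groups did not overlap. It stayed between -0.63 and -0.49 in all alternatives, and without array 6 it was -0.50. Kalrn, a guanine nucleotide exchange factor that shapes dendritic spines, read 69, 51 and 43 against 34, 39 and 20 (-0.84 ± 0.21, SE). Its groups did not overlap, array 6 was lowest, and without array 6 the difference was -0.55. The 2 further Kalrn probe sets read 8 to 11 on all preoptic arrays. Rims2, an active zone protein of presynaptic terminals, read 27, 25 and 26 against 21, 17 and 19 (-0.46), and a brighter Rims2 probe set was at -0.23.

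Egr1, an activity-induced transcription factor, read 174, 121 and 147 under long days and 78, 122 and 87 under short days (-0.63 ± 0.16, SE, unadjusted p = 9.44e-04). Arrays 4 and 6 were below all long-day arrays, but array 5 was level with long-day array 2. Meis2, a homeodomain factor of striatal and other ventral forebrain neurons, read 667, 564 and 493 against 296, 517 and 183 (-0.91 ± 0.24, SE). Arrays 4 and 6 were low and array 5 lay within the long-day range, and without array 6 the difference was -0.54. Arpp19, a phosphatase inhibitor controlled by protein kinase A, showed the same order of arrays: 1324, 938 and 806 against 524, 873 and 464 (-0.75 ± 0.22, SE; -0.56 without array 6). A second Arpp19 probe set was at -0.89 and the remaining, dim one at -0.10.

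ND5, a mitochondrially encoded subunit of respiratory complex I, read 190, 87 and 72 under long days and 78, 44 and 24 under short days (-1.28 ± 0.33, SE). The groups overlapped, long-day array 1 was high and short-day array 6 low, and without array 6 the difference was -0.86. On the bed nucleus arrays ND5 read 32, 22 and 25 under long days and 51 and 38 under short days. The remaining lower genes were Grb14 (-0.59), an adaptor that restrains insulin receptor signalling, Ikbkb (-0.53), a kinase of the NF-kappa-B pathway, and Trim62 (-0.71), a ubiquitin ligase. Acta2 (-0.51) encodes smooth muscle actin, Clec2h (-0.50) a C-type lectin, Auh (-0.49) an enzyme of leucine breakdown and Rbp4 (-0.47) the plasma carrier of retinol. Without array 6, Ikbkb was at -0.35 and Trim62 at -0.50. A further, brighter Acta2 probe set was at -0.11. Those of Clec2h were at 0.04 and 0.07, and those of Trim62 at 0.14 and 0.22. Further Ikbkb probe sets ran from -0.03 to -0.00 and those of Auh from -0.01 to 0.13. The brightest Auh probe set, at 67 to 93 on the preoptic arrays, was the one at 0.13.

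Where these 30 genes had other probe sets, those were not uniformly alike. For 16 of the 30 there were 29 further probe sets, of which 15 had the same sign and 3 an unadjusted p under 0.05: one each of Cd24a and Arpp19 with the same sign, and one of Psma6 with the opposite one. In the bed nucleus, on arrays that the choice of these genes did not use for their means, 5 of the 15 higher and 7 of the 15 lower genes differed in the same direction. Over all probe sets the same sign was found in both nuclei for 50.7%. Leaving out array 6 made the difference smaller in 21 of the 30 genes and reduced it over 1.5 times in 4, and of the 793 probe sets, 305 also had an unadjusted p under 0.05 without it.

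Each gene in the lists was represented by its brightest probe set over the 11 arrays. Of the 12393 genes so measured, 6076 (49.0%) were higher and 6198 (50.0%) lower under short days, with a median of -0.00. An unadjusted p under 0.05 was found for 433 (3.49%), 222 higher (1.79%) and 211 lower (1.70%), and groups that did not overlap for 684 (5.52%). Of the 29 lists, 28 had a median between -0.06 and 0.05. The exception was the list of striatal medium spiny neuron markers, at -0.29. All lists were chosen with earlier results of these data known. Without array 6 the median changed sign in 9 lists, and 2 lists had a median beyond 0.1: the striatal list and the general neuronal list, at 0.14.

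**Figure D3:**
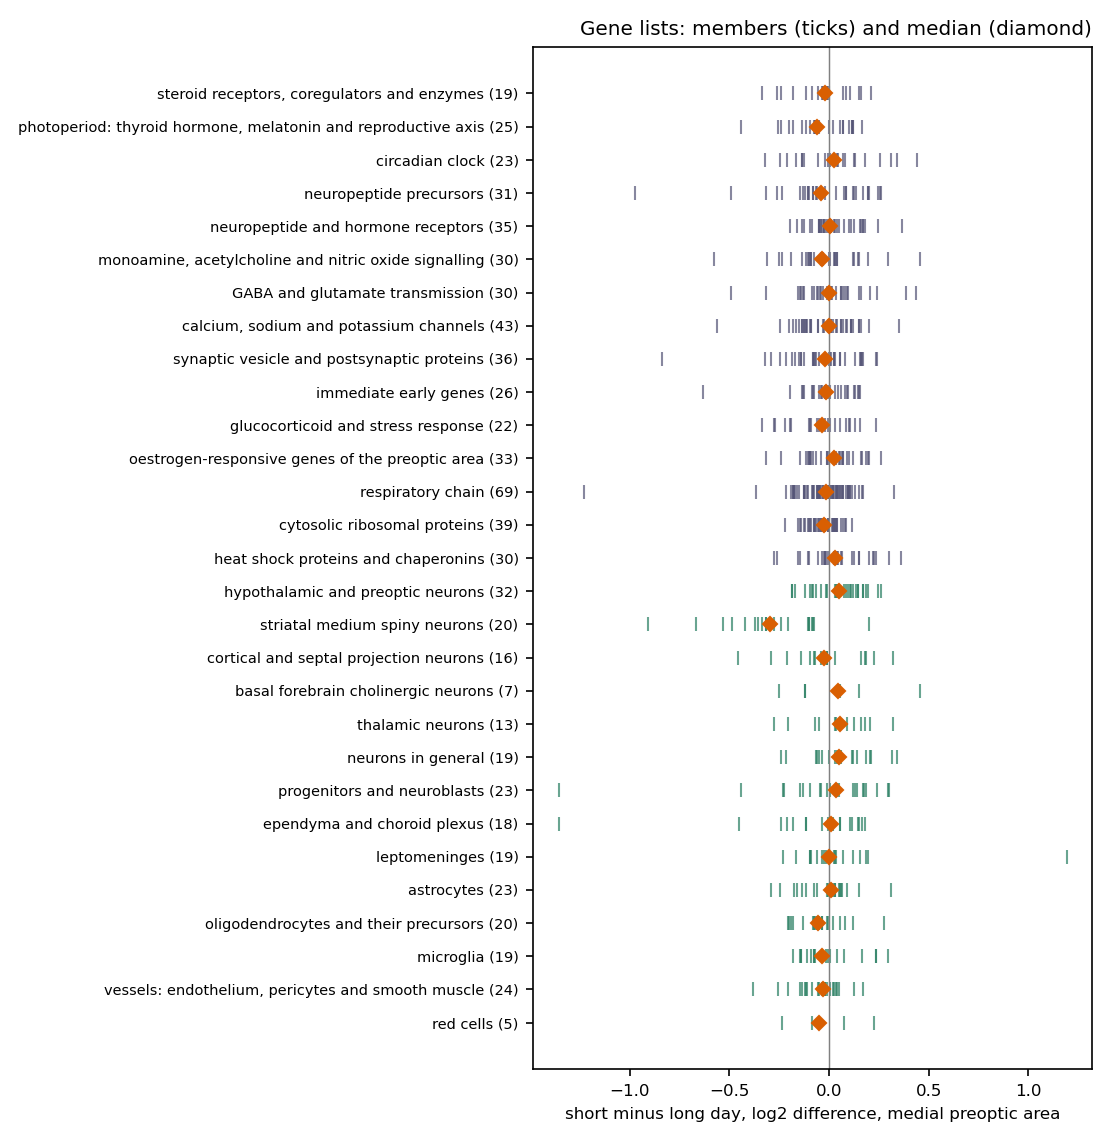
Short minus long day log2 difference of each measured member (ticks) and the list median (diamonds) for the 29 gene lists in the preoptic area, with the number of measured members in brackets (grey-blue, functional lists; green, cell type markers). The striatal list has its median at -0.29 and 19 of 20 members below 0, while the other medians lie between -0.06 and 0.05.

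Steroid signalling genes, which include the receptors that mark the nucleus, had 6 members higher and 13 lower of 19, with a median of -0.02. Esr1 read 11, 11 and 13 under long days and 11, 14 and 10 under short days (-0.01, 95% interval -0.32 to 0.30). Esr2, oestrogen receptor beta, read 29, 32 and 28 against 29, 37 and 33 (0.15, 95% interval -0.14 to 0.43), and Pgr, the progesterone receptor, 17, 19 and 22 against 16, 15 and 18 (-0.24, 95% interval -0.52 to 0.05). The groups of all 3 overlapped. Hsd11b1, which regenerates active glucocorticoid, was at -0.34 (unadjusted p = 0.0287), the list's single member under 0.05. Of 33 oestrogen-responsive genes, 18 were higher, 14 lower and 1 at 0 (median 0.03), and none had an unadjusted p under 0.05.

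Thyroid hormone, melatonin and reproductive axis genes had 10 members higher and 15 lower of 25, with a median of -0.06. Dio2, the deiodinase that activates thyroid hormone, read 35, 40 and 34 under long days and 33, 37 and 32 under short days (-0.09, 95% interval -0.41 to 0.22). Tshr, the thyrotropin receptor, was at 0.12, Eya3, a photoperiod-sensitive transcriptional coactivator of the pars tuberalis, at -0.06, and Mtnr1a, a melatonin receptor, at -0.07. Npvf, the precursor of RFamide-related peptide, was at 0.10. All of these groups overlapped. Further probe sets had the opposite sign, at 0.06 and 0.14 for Dio2, -0.14 for Tshr and 0.02 for Eya3. Nes, placed in this list as a gene of tanycytes, the ventricular cells that process thyroid hormone, read 21, 27 and 27 against 20, 19 and 16 (-0.44 ± 0.15, SE, unadjusted p = 0.00793), without overlap, and its further probe sets were at 0.12 and 0.04.

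Clock genes had 13 members higher and 10 lower of 23, with a median of 0.03. With all probe sets of each gene averaged, 10 were higher and 13 lower (median -0.00), so the direction turned. An unadjusted p under 0.05 was found for 3, all higher, against 3.49% of all genes (1.79% higher). Csnk1e, a kinase of the period proteins, read 40, 29 and 39 under long days and 40, 49 and 58 under short days (0.44 ± 0.16, SE). Per3, a period gene, read 41, 34 and 30 against 37, 52 and 44 (0.34), and Nr1d2, a repressor of the clock loop, 15, 15 and 12 against 19, 16 and 17 (0.31). Nr1d2 alone of these had groups that did not overlap, and a further Nr1d2 probe set was at -0.16. Further probe sets of Csnk1e (-0.02) and Per3 (-0.06 and 0.00) showed no difference of that size. Without single arrays the values went down to 0.29 for Csnk1e (long-day array 2), 0.22 for Per3 (short-day array 5) and 0.20 for Nr1d2 (long-day array 3). Other clock genes were at 0.13 (Per1), -0.24 (Dbp) and -0.21 (Nr1d1), and without array 6 these were 0.07, -0.07 and -0.08. A further, dimmer Dbp probe set was at 0.07. Per2 was at 0.08, or -0.08 without array 6, and its other probe set at -0.27. Dbp and Nr1d1, outputs with a strong daily rhythm, read lowest on array 6, and the sources used here do not give the hour of sampling.

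Neuropeptide precursors had 14 members higher and 17 lower of 31, with a median of -0.04. Npy, which encodes neuropeptide Y, read 237, 258 and 131 under long days and 82, 198 and 65 under short days (-0.97 ± 0.34, SE, unadjusted p = 0.00929). Arrays 4 and 6 were below all long-day arrays and array 5 lay among them, and without array 6 the difference was -0.65. Sst, somatostatin, read 484, 603 and 358 against 261, 520 and 278 (-0.49 ± 0.24, SE, unadjusted p = 0.0524). Here too arrays 4 and 6 were below all long-day arrays, but array 4 was the lowest. Gal read 93, 99 and 95 against 112, 110 and 122 (0.26 ± 0.14, SE, unadjusted p = 0.0749). Its groups did not overlap, and the long-day values lay within 6 units of each other. Penk, proenkephalin, read 85, 81 and 74 against 50, 79 and 67 (-0.31). Oxt, oxytocin, read 84, 88 and 80 against 78, 78 and 82 (-0.08), and Avp, vasopressin, 43, 53 and 45 against 47, 48 and 49 (0.04).

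Among 35 neuropeptide and hormone receptors 18 were higher and 17 lower (median 0.00). Oprk1, the kappa opioid receptor, read 24, 23 and 18 under long days and 28, 23 and 33 under short days (0.37 ± 0.17, SE, unadjusted p = 0.0411). Its groups overlapped, since array 5 read 23, and it was at 0.24 without array 6 and also without long-day array 3. Oxtr, the oxytocin receptor, was at 0.10, and Calcr at 0.24 (0.12 without array 6), with 12 on each long-day array against 13, 13 and 17. In the list of monoamine, acetylcholine and nitric oxide genes 13 were higher, 16 lower and 1 at 0 of 30 (median -0.03). Ache, acetylcholinesterase, read 86, 173 and 121 against 169, 181 and 152 (0.46 ± 0.19, SE), Gucy1a1, a subunit of the nitric oxide receptor, 88, 42 and 58 against 39, 50 and 33 (-0.58 ± 0.20, SE), and Chrna4, a nicotinic receptor subunit, 23, 29 and 26 against 19, 24 and 20 (-0.31). All 3 had an unadjusted p under 0.05 with overlapping groups. Without long-day array 1, Ache was at 0.21 and Gucy1a1 at -0.30, and without long-day array 2 Ache was at 0.71. A second probe set was at 0.32 for Gucy1a1 and at 0.08 for Chrna4. Th, tyrosine hydroxylase of dopamine synthesis, was at 0.02 and Nos1, neuronal nitric oxide synthase, at -0.10.

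GABA and glutamate genes had 15 higher and 15 lower members (median -0.00), and 19 and 11 without array 6 (median 0.05). Gabrb2 and Gabrd, subunits of the GABA-A receptor, differed in opposite directions: Gabrb2 read 23, 20 and 25 under long days and 33, 25 and 31 under short days (0.38), and Gabrd 28, 24 and 23 against 20 on each array (-0.32). Gria3, an AMPA receptor subunit, read 161, 103 and 160 against 98, 122 and 80 (-0.49 ± 0.22, SE). These 3 had an unadjusted p under 0.05, and Gabrd alone had groups that did not overlap. Channel genes had 20 higher, 22 lower and 1 at 0 of 43, with Cacna2d3 and Kcnj3, an inward rectifier potassium channel (0.35, or 0.21 without long-day array 3), under 0.05. Synaptic genes had 16 higher and 20 lower of 36, with Kalrn under 0.05 and Shank3, a postsynaptic scaffold, at -0.32. Immediate early genes had 12 higher and 14 lower of 26 (median -0.01), and 16 and 10 without array 6 (median 0.02), and Egr1 was the single member under 0.05, with Egr2 at -0.19.

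The counts of respiratory chain and ribosomal protein genes turned with array 6. Respiratory chain genes had 30 higher and 39 lower of 69 (median -0.01), against 42 and 27 without array 6. Cox8a, a subunit of complex IV, was at 0.33 and Ndufb6, of complex I, at -0.37, each with an unadjusted p under 0.05. Further probe sets were at 0.09 and 0.08 for Cox8a and at 0.05 for Ndufb6, and without long-day array 2 Cox8a was at 0.22. Ribosomal protein genes had 14 higher and 25 lower of 39 (median -0.03), against 25 and 14 without array 6, and none was under 0.05. Heat shock and chaperonin genes had 17 higher and 13 lower of 30. Dnajb2 (0.30, or 0.20 without short-day array 5) and Hspb8 (-0.26, or -0.15 without array 6) were under 0.05. Further Hspb8 probe sets were at 0.00 and 0.07. Glucocorticoid and stress genes had 9 higher and 13 lower of 22.

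Medium spiny neurons are the inhibitory projection cells of the striatum, which lies beside and above the preoptic area. Of their 20 measured markers 1 was higher and 19 were lower in the short-day samples, with a median of -0.29, against 50.0% lower and a median of -0.00 over all genes. An unadjusted p under 0.05 was found for 6, all lower, against 3.49% of all genes (1.70% lower). The list was chosen with earlier results of these data known, and its members were low on the same arrays. They are thus not separate observations, and no support is drawn from these counts. Meis2 had the smallest p of the 6. Rgs9, a regulator of dopamine receptor signalling, read 83, 72 and 69 under long days and 48, 67 and 32 under short days (-0.67 ± 0.23, SE, unadjusted p = 0.00819). Foxp1, a forkhead transcription factor, read 2615, 2017 and 1805 against 1428, 1920 and 1437 (-0.42 ± 0.15, SE), and Rasd2, a small G protein enriched in striatum, 59, 46 and 52 against 42, 45 and 27 (-0.49 ± 0.22, SE). Without array 6, Rgs9 was at -0.39 and Rasd2 at -0.26, and without long-day array 1 Foxp1 was at -0.27. In Rgs9 and Rasd2 every short-day value was below every long-day value. Foxp1 overlapped through array 5, and its 6 further probe sets ran from -0.56 to 0.13. The others were Ryr1, a calcium release channel (-0.53, or -0.29 without array 6), and Foxp2, another forkhead factor (-0.36, or -0.22 without short-day array 4 and -0.58 without array 5). The further probe sets of Rgs9 (-0.13) and Rasd2 (-0.11) were dim.

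The striatal values differed among the short-day arrays. Averaged over the list, log2 intensity was 5.79, 5.66 and 5.62 for long-day samples and 5.35, 5.63 and 5.22 for short-day samples, so that array 5 was level with the long-day arrays. Array 4 read below all long-day arrays for 11 of the 20 genes, array 5 for 4 and array 6 for 12. Without array 6 the median was -0.17, with 2 higher and 18 lower. On the bed nucleus arrays the mean was 5.78 to 6.24 and the median difference 0.00, and 15 of the 20 genes had a higher mean there than in the long-day preoptic samples. Penk, the peptide of the indirect pathway, read 74 to 85 on the long-day arrays. Some markers that define the type had intensities near or under the array median of 19. With house mouse probes the levels of different genes cannot be compared, so this does not show low expression. Drd2, the dopamine receptor of the indirect pathway, read 12 to 16 on the preoptic arrays (-0.10), Tac1, the substance P precursor of the direct pathway, 14 to 19 (-0.08), and Ppp1r1b, the dopamine-regulated phosphatase inhibitor DARPP-32, 22, 17 and 15 against 13, 14 and 16 (-0.32). Drd2, Tac1 and Ppp1r1b were picked for their low intensities after these were seen. The part of striatal tissue in the values of Meis2, Arpp19, Kalrn, Npy and Sst, which were also lowest on array 4 or 6, was not tested.

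**Figure D4:**
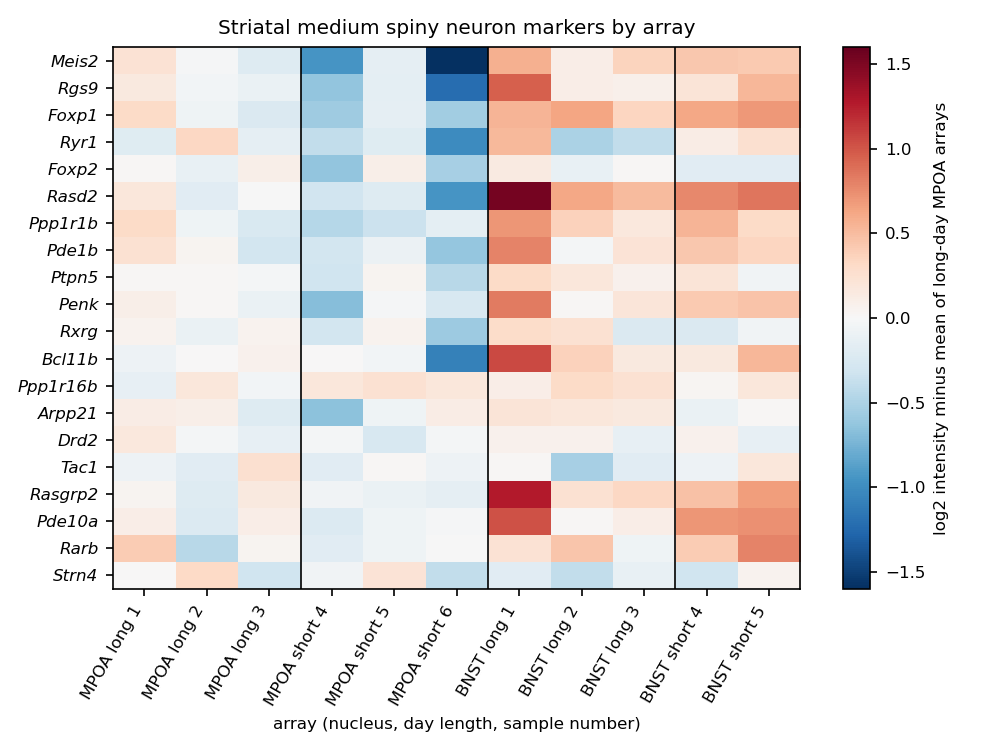
Log2 intensity of the 20 striatal markers (rows, smallest p at the top) on each of the 11 arrays (columns), minus the gene's mean over the 3 long-day preoptic arrays; blue is lower and red higher. The low values gather on short-day preoptic arrays 4 and 6, while array 5 reads close to the long-day arrays and most bed nucleus columns are higher.

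Hypothalamic and preoptic markers had 21 members higher and 11 lower of 32, with a median of 0.05, and 17 and 15 without array 6. None had an unadjusted p under 0.05. The list mean was 5.21, 5.28 and 5.25 against 5.22, 5.31 and 5.35, highest on array 6. Ndn, an imprinted gene of hypothalamic neurons, read 2542, 3375 and 2635 against 2764, 3230 and 3604 (0.17). Isl1, a LIM homeodomain factor, read 2214, 2192 and 1992 against 2000, 2135 and 1767 (-0.12). Both are members chosen after their values were seen, as bright examples, and both groups overlapped.

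**Figure D5:**
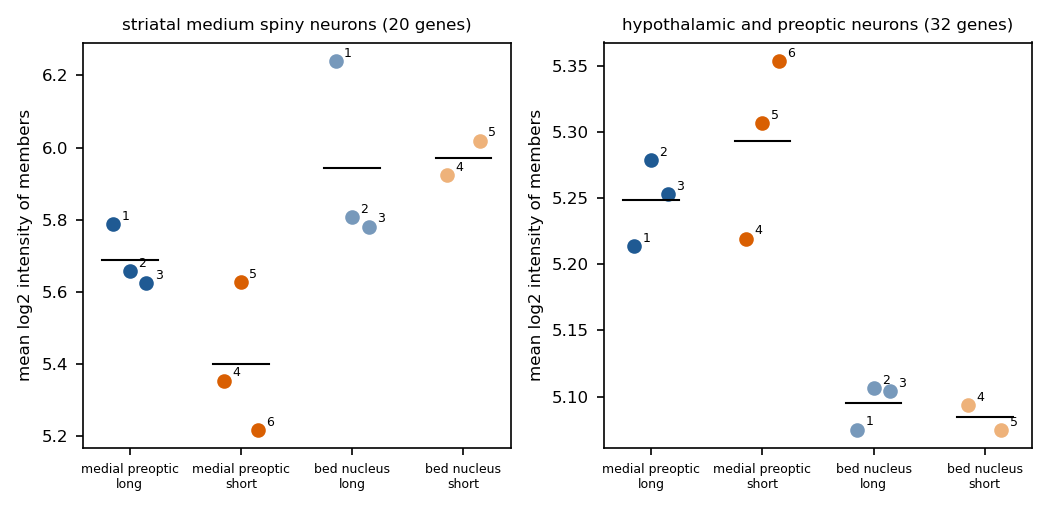
Mean log2 intensity over the 20 striatal markers (left) and the 32 hypothalamic and preoptic markers (right) on each of the 11 arrays, with the sample number beside each point and the group mean as a line; the vertical axes differ and do not start at 0. Array 6 has the lowest striatal mean (5.22) and the highest hypothalamic mean (5.35) of the 11 arrays.

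The other cell type lists had medians between -0.06 and 0.05. General neuronal markers had 12 higher and 7 lower of 19 (median 0.05, or 0.14 without array 6), with the neurofilament gene Nefh at 0.34 and unadjusted p = 0.05 (0.22 without short-day array 4). Cortical and septal markers had 6 and 10 of 16 (median -0.03), and 10 and 6 without array 6 (median 0.03). Mef2c, a transcription factor of cortical and striatal neurons, read 340, 238 and 236 under long days and 165, 251 and 179 under short days (-0.46 ± 0.19, SE), again with arrays 4 and 6 low. Without long-day array 1 it was at -0.28, and its further probe sets ran from -0.27 to 0.03. Thalamic markers had 9 higher and 4 lower of 13 (median 0.05), and basal forebrain cholinergic markers 4 and 3 of 7 (median 0.05), with Ache under 0.05 and Slc5a7, the choline transporter, at -0.25.

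Astrocyte markers had 13 higher and 10 lower of 23 (median 0.01), with Cldn10, a tight junction protein, at 0.31. Oligodendrocyte markers had 5 and 15 of 20 (median -0.05), and 12 and 8 without array 6 (median 0.02). Gjb1, a gap junction protein of oligodendrocytes, was at 0.28 and the list's single member under 0.05, with a further probe set at 0.00. Microglial markers had 7 and 12 of 19 (median -0.04), none under 0.05, and red cell transcripts 2 and 3 of 5 (median -0.05), or 4 and 1 without array 6 (median 0.07). Vascular markers had 8 and 16 of 24 (median -0.03). Cldn5, the endothelial tight junction protein, read 27, 28 and 28 under long days and 20, 24 and 20 under short days (-0.38 ± 0.12, SE, unadjusted p = 0.00592), with no overlap between the groups.

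Whether the day-length response of the preoptic area differed from that of the bed nucleus was tested as the difference of both effects. No probe set passed with limma (0 of 22626, 0%; smallest adjusted p = 0.238), and 1888 had an unadjusted p under 0.05 (8.34%). Of the 30 named genes, 12 of the 15 higher and 9 of the 15 lower were among the 1888; they were chosen on the preoptic difference, which is part of this one, so no support is drawn from that count. Ropn1l had the smallest of these p-values, with 13, 16 and 17 under long days and 26, 22 and 21 in short days in the preoptic area and 32, 29 and 26 against 20 and 20 in the bed nucleus. The effects were 0.59 and -0.53, and the difference 1.12 (unadjusted p = 2.79e-05, adjusted p = 0.238, limma). Cacna2d3 was at -0.56 in the preoptic area and 0.30 in the bed nucleus, where it read 114, 94 and 91 against 117 and 128. ND5 was at -1.28 and 0.76. Clec2h, at -0.50 and 0.46, read 27, 28 and 38 against 22, 21 and 22 in the preoptic area. Without long-day bed nucleus array 1, 5 probe sets passed this test, all with a positive difference. They were both of Cbln1, a synaptic organizer (3.39 and 3.99), and those of Zic1 (2.07), Nptx2 (1.53) and Ntng1 (2.14). Ntng1 read 152 to 249 in the preoptic area and 176 to 778 in the bed nucleus, and Nptx2 25 to 33 and 22 to 63. The thalamic list's mean log2 intensity was 6.18 and 5.89 on long-day bed nucleus arrays 2 and 3, but 5.25 on array 1. Its part in these calls was not tested.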

How the data were processed

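Each deposited value is the intensity of a probe set, unlogged, made with RMA version 3.4 per the submitters' processing notes; the sources used here give no other upstream step. The values ran from 5 to 25933, all whole numbers, with a median of 19 and quartiles of 13 to 14 and 34 to 35 on every array, so a step of 1 unit at the median is 0.07 on the log2 scale and 51.1% of values were 19 or less. The number of arrays limits the precision. From 22690 probe sets 64 controls were set aside. Of the 22626 tested, 20380 carry exactly 1 symbol in the platform annotation (12393 genes), 691 several and 1555 none; only the first were named, and symbols can be old.

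The deposited intensities were put on the log2 scale with no pseudocount. A model of 4 group means over 11 arrays was fitted with limma 3.58.1 in R 4.3.3 (lmFit, eBayes; 7 residual and 12.9 prior degrees of freedom), two-sided, with Benjamini-Hochberg adjustment over all probe sets and a threshold of 0.05. An exact permutation test of 3 against 3 arrays cannot go below p = 0.1 and was not used. Named genes were the 15 higher and 15 lower with the smallest p, 1 probe set each, whose higher group mean exceeded the array median, list members with an unadjusted p under 0.05 or otherwise the 2 smallest, 29 genes of steroid, peptide and photoperiod biology, and any called in an alternative; the text gives a selection. The 29 lists, the rule and the comparisons were chosen with earlier results of these data known. No 2 arrays held identical values. The procedure was tested on simulated data with independent noise, and the outcome is not given here. The simulation had no outlying array such as array 6 and no shift shared by many genes, so it does not cover these. The alternatives were quantile normalization, median centring, dim probe sets left out, a floor of 16, array weights, a trended and robust prior, a single probe set for each gene, an adjusted p under 0.10, the 6 preoptic arrays alone, the replicate block, each array left out and, for lists, all probe sets of a gene averaged. Leaving out bed nucleus arrays for the preoptic contrast was chosen after seeing the data.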

Additional observations from a re-analysis of the deposited data

How the results depend on the processing

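The count of probe sets past the threshold, 0, became 1 with a floor of 16, 1 with array weights and 0 to 1 with single arrays left out; the floor call sat at 17 or less on all 11 arrays, with 3 above the floor. The 793 unadjusted p-values under 0.05 became 311 with dim probe sets left out, 436 with 1 probe set per gene and 660 to 1250 with an array left out (1250 without short-day array 5), fewer probe sets being tested in the first 2. The 1175 probe sets without overlap became 624 of 11397 with dim ones left out and 2525 to 3211 with an array left out, where fewer values have to separate. For the difference between the nuclei, 0 became 8 with the floor and 0 to 5 with an array left out, and its 1888 unadjusted p-values became 1074 without dim probe sets, 1095 with 1 per gene and 1393 to 2345 with an array left out. The 8 floor calls were above the floor on 2 or 3 arrays.

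The 30 named genes kept their direction in all alternatives that gave a value. Their choice by p on these same arrays favours this, so no support is drawn from it. In 13 of the 15 higher and 10 of the 15 lower genes the groups did not overlap. For those, leaving out an array cannot turn the sign. Near 0, Esr1 turned to 0.024 and Per2 to -0.018 with array weights. With an array left out, Esr1 ran from -0.149 to 0.094, Per2 from -0.080 to 0.172, Avp from -0.025 to 0.126, Eya3 from -0.110 to 0.011, Oxtr from -0.030 to 0.187, Th from -0.0091 to 0.092, Tnnt1 (a thalamic marker) from -0.021 to 0.358, Ttr from -0.048 to 0.121, Tac1 from -0.173 to 0.048 and Cycs from -1.97 to 0.018; the cause was not tested. Of the 29 list medians, 4 turned with all probe sets of a gene averaged: clock, GABA and glutamate, ependymal and leptomeningeal genes. For 37 of 110 named probe sets the filter on dim values left no value. Arrays of the nuclei that share a sample number showed little correlation (correlations of deviations -0.03 to 0.07). Whether they came from the same animals cannot be decided from this, since the deviations were taken within very small groups. The replicate block gave 0 probe sets past the threshold and 795 unadjusted p-values under 0.05. With 3 arrays a group, the 95% interval of a difference had a median half-width of 0.29.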
